A study of Pinus tabuliformis with 21 samples.

Results

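The comparison set UV-C against UV-B after 7 d of irradiation in foliage of the Chinese pine Pinus tabuliformis, by poly(A) RNA sequencing. It contrasts 6 libraries of 21 in the series, chosen by their labels: 3 from seedlings given UV-C for 7 d and 3 from seedlings given UV-B for 7 d. UV-C came from lamps of 230 to 270 nm with a peak at 254 nm, at 28 µW/cm2. UV-B came from lamps of 280 to 320 nm with a peak at 306 nm, at 280 µW/cm2. Both were added to the same greenhouse light, on seedlings aged 2.5 years in groups of 20. The fold changes are those between these 6 libraries, while the model was fitted to all 21, so the other groups entered the filter, the library scaling and the dispersion. The 0 h control, seedlings of the same age without ultraviolet light, is no side of the contrast and is used below to place its genes. Band and intensity changed together between the lamps, so an effect of wavelength and one of dose cannot be told apart. The labels number the replicates without saying whether each came from its own seedling or from pooled foliage, and p-values here reflect library-to-library spread alone, which may be technical.

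Plants sense UV-B with the photoreceptor UVR8, which binds the ubiquitin ligase COP1, stabilizes the transcription factor HY5 and raises genes of flavonoid synthesis, DNA repair and photoprotection. UV-C does not reach the ground in sunlight. It is absorbed strongly by DNA, where it forms pyrimidine dimers that photolyases and excision repair remove. Conifer needles hold UV-absorbing phenolics in the epidermis. The deposited table pairs no gene model with a name, so members of these pathways could not be looked up, and neither could marker genes of needle tissue. Genes are therefore described by their behaviour and 4 are followed by identifier.

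The UV-C libraries of 7 d held between 7344271 and 8560163 counts and the UV-B libraries between 7286112 and 7491995. They detected 24394 ± 472 gene models under UV-C and 24653 ± 172 under UV-B (SD, n = 3 each), of 84525 in the table. Levels are given as counts scaled to a common library size (CPM), with library sizes adjusted by the trimmed mean of M values (TMM), and in these libraries 1 CPM stood for between 6.95 and 8.36 counts. The biological coefficient of variation was 19.9% within UV-C and 25.3% within UV-B. Over genes, which are not independent replicates, log2-CPM of libraries correlated at 0.961 to 0.976 within UV-C, at 0.949 to 0.972 within UV-B and at 0.921 to 0.952 between the bands. UV-B replicate 2 was the library least like its mates, at a mean correlation of 0.95, against 0.972 between UV-B replicates 1 and 3.

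After 7 d, 595 gene models were higher under UV-C than under UV-B and 516 were lower. Together they were 6.08% of the 18265 gene models tested, 3.26% higher and 2.83% lower (edgeR's quasi-likelihood test, Benjamini-Hochberg adjusted p under 0.05). Most of the higher genes differed little: their median log2 fold change was 0.76, and 372 of 595 differed by less than 2-fold. Over all count levels together, the lower genes differed further, with a median of -1.13, and 290 of 516 by at least 2-fold. Within bins of counts, given below, the medians of the directions lay closer in size. Differences of at least 4-fold were reached by 85 higher and 104 lower genes, and of at least 8-fold by 40 higher and 33 lower genes. These sizes place the 1 higher gene without a count under UV-B and the 6 lower genes without a count under UV-C at a bound computed from 3 counts in the empty group, which left both medians as given.

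The CPM ranges of the bands did not overlap for 594 of the 595 higher and 511 of the 516 lower genes. The calls rest on a separation of the same libraries, so this largely follows from the choice and is no further support. Over all tested genes, 30.5% did not overlap, 15.3% with UV-C above and 15.3% with UV-C below. In foliage as a whole, a smaller number of cells of a type and less RNA per cell cannot be told apart, here and below. Of the 17154 genes not called, 8719 (50.8%) had a 95% confidence interval that lay within a 2-fold difference in either direction. For the other 8435 the interval was wider or was not available, as for genes without a count in either band. Where it was wider, a 2-fold difference lay within reach of it at this depth and spread. The count of 1111 called genes fell to 595, 471 and 524 without UV-C replicate 1, 2 or 3, and leaving out UV-B replicate 1, 2 or 3 gave 825, 549 and 433, each time with 2 libraries in a group. It was 1717 with DESeq2 and 1911 with limma voom and a quality weight per group. A fit of the 6 libraries alone called 1356 of 15736 genes tested, with 850 of the 1111 among them in the same direction, and without UV-C 3 d replicate 3 the count was 1342.

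The direction of the difference went with how many counts a gene had. CPM are not corrected for transcript length, so this orders genes by counts collected and not by transcript level. Among the 3240 genes with a mean of at least 64 CPM over the 6 libraries, 290 were higher under UV-C and 91 lower (8.95% and 2.81%). Among the 15025 genes under 64 CPM, 305 were higher and 425 lower (2.03% and 2.83%). More higher than lower genes from 64 CPM, and more lower than higher genes under it, were counted in each of the 16 alternative fits, among them DESeq2 size factors (305 and 92, then 315 and 422) and upper quartile scaling (282 and 83, then 285 and 411). These fits reuse the same libraries and the 64 CPM split of the main fit. Under 64 CPM the excess of lower genes was small without UV-C 7 d replicate 1, 2 or 3. Higher and lower genes there were 178 and 192, 137 and 159, and 152 and 168. Without UV-B 7 d replicate 1, 2 or 3 they were 217 and 320, 137 and 226, and 108 and 166.

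Sizes followed the counts as well. The median log2 fold change of the higher genes was 4.21 under 1 CPM, 2.43 from 1 to 4 CPM, 1.45 from 4 to 16 CPM, 0.83 from 16 to 64 CPM, 0.60 from 64 to 256 CPM and 0.62 above. That of the lower genes in the same bins was -4.19, -2.20, -1.26, -0.85, -0.68 and -0.83. The precision moved with them, since the median half-width of the 95% interval was 2.07 on the log2 scale under 1 CPM and 0.29 from 64 to 256 CPM. Small differences could thus be called only where counts were high. Of the 100 tested genes with the most counts, 6 were higher under UV-C, 1 was lower and 93 were not called. Called genes made up 6.08% of all tested genes and 15.7% of those from 256 CPM, so the top 100 did not extend the rise with counts. These 100 genes took 26.8% of all counts under UV-C and 25.9% under UV-B.

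**Figure D1:**
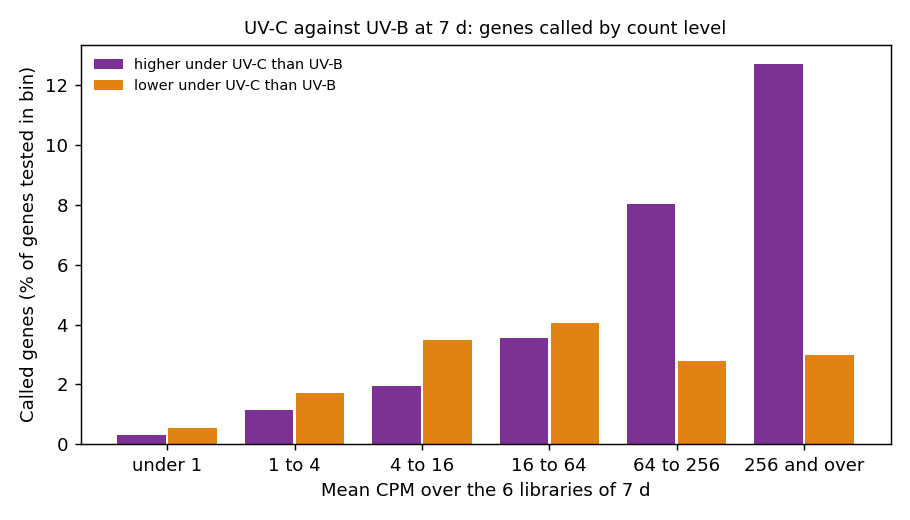
Percentage of tested genes called higher (purple) or lower (orange) under UV-C than under UV-B at 7 d, in bins of mean CPM over the 6 libraries. Higher genes reached 12.7% in the bin from 256 CPM and lower genes peaked at 4.06% between 16 and 64 CPM.

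Identifiers in the table come in different forms. Of the gene models tested, 16363 begin with PITA_ and 6.18% of them were called, 1413 begin with PITAhm_ and 5.59% were called, and 489 carry other identifiers and 4.29% were called. These shares lie near the 6.08% of all tested genes.

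Among well-counted genes whose bands did not overlap, 529 higher and 414 lower, PITA_000083386-RA had the largest fold difference in favour of UV-C. It had 83.9, 113 and 49.1 CPM in the UV-C libraries of 7 d, against 0.143, 0.267 and 0 CPM in the UV-B libraries. Only 3 counts were found over the 3 UV-B libraries, against 1833 under UV-C, a ratio of 603 with an exact 95% interval of 206 to 2926 that covers counting error only. The fitted log2 fold change was 9.07 ± 1.18 (SE; edgeR adjusted p = 0.000537), a value that depends on the prior count. In limma voom with group weights its adjusted p was 0.0837, and in the other 15 alternatives the gene was called.

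The same gene had few counts under UV-B at the earlier durations too, in libraries that did not serve to choose it. At 1 d it had 41.4 ± 25.8 CPM under UV-C and 0.367 ± 0.319 CPM under UV-B (SD, n = 3 each; edgeR adjusted p = 0.000457). At 3 d it had 23.2 ± 24.6 CPM under UV-C and 0.223 ± 0.0803 CPM under UV-B (edgeR adjusted p = 0.00211). One UV-C library of 3 d, replicate 2, was low at 1.87 CPM. The unirradiated control had 70.6 ± 26.7 CPM, from which UV-C at 7 d differed by 0.22 ± 0.66 on the log2 scale (SE; edgeR adjusted p = 0.868) and UV-B by -8.85 ± 1.18 (edgeR adjusted p = 0.000133).

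PITA_000085805-RA showed the reverse and had the largest fold difference in favour of UV-B. It had 0.12, 0.576 and 0.143 CPM in the UV-C libraries of 7 d, against 43.4, 45.2 and 58.8 CPM in the UV-B libraries. There were 6 counts under UV-C and 1084 under UV-B, so the level under UV-C was 183-fold lower, with an exact 95% interval of 83.8 to 500.0 for counting error. The fitted log2 fold change was -7.42 ± 0.74 (edgeR adjusted p = 5.62e-05). At 1 d it had 0.0449 ± 0.0778 CPM under UV-C and 33 ± 22.8 CPM under UV-B (edgeR adjusted p = 1.67e-05), and at 3 d 0.241 ± 0.0999 CPM under UV-C and 52.8 ± 31.7 CPM under UV-B (edgeR adjusted p = 1.8e-05). One UV-B library of 1 d, replicate 3, was low at 8.31 CPM. The control had 46 ± 1.78 CPM, near the level under UV-B at 7 d. The UV-C libraries of all durations, 9 of 9, were below every control library.

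The other pair was chosen for the size of the difference in mean CPM. PITAhm_001053-RA had 3194, 2309 and 4002 CPM under UV-C at 7 d, against 925, 1652 and 915 CPM under UV-B, a log2 fold change of 1.44 ± 0.25 (edgeR adjusted p = 0.00323). UV-C was also higher at 1 d, with 1694 ± 166 CPM against 448 ± 137 CPM under UV-B (edgeR adjusted p = 0.00016), and at 3 d, with 3179 ± 177 CPM against 1756 ± 273 CPM under UV-B (edgeR adjusted p = 0.0409). The control had 1594 ± 265 CPM. UV-C at 7 d exceeded it (edgeR adjusted p = 0.0163), and UV-B at 7 d was not called against it (edgeR adjusted p = 0.217).

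PITA_000008151-RA had 934, 717 and 1008 CPM under UV-C at 7 d, against 2160, 4131 and 2564 CPM under UV-B, a log2 fold change of -1.74 ± 0.27 (edgeR adjusted p = 0.00139). Unlike the first 3 genes it was not called at the earlier durations. It had 1057 ± 134 CPM under UV-C, against 1397 ± 153 CPM under UV-B at 1 d, and at 3 d 1388 ± 359 CPM under UV-C and 1733 ± 356 CPM under UV-B (SD, n = 3 each). The change of the band difference between 1 and 7 d was -1.33 ± 0.37 and did not pass the threshold (edgeR adjusted p = 0.0654). The control had 1158 ± 355 CPM, from which UV-C at 7 d differed by -0.39 ± 0.26 on the log2 scale (edgeR adjusted p = 0.352) and UV-B by 1.35 ± 0.26 (edgeR adjusted p = 0.00222).

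**Figure D2:**
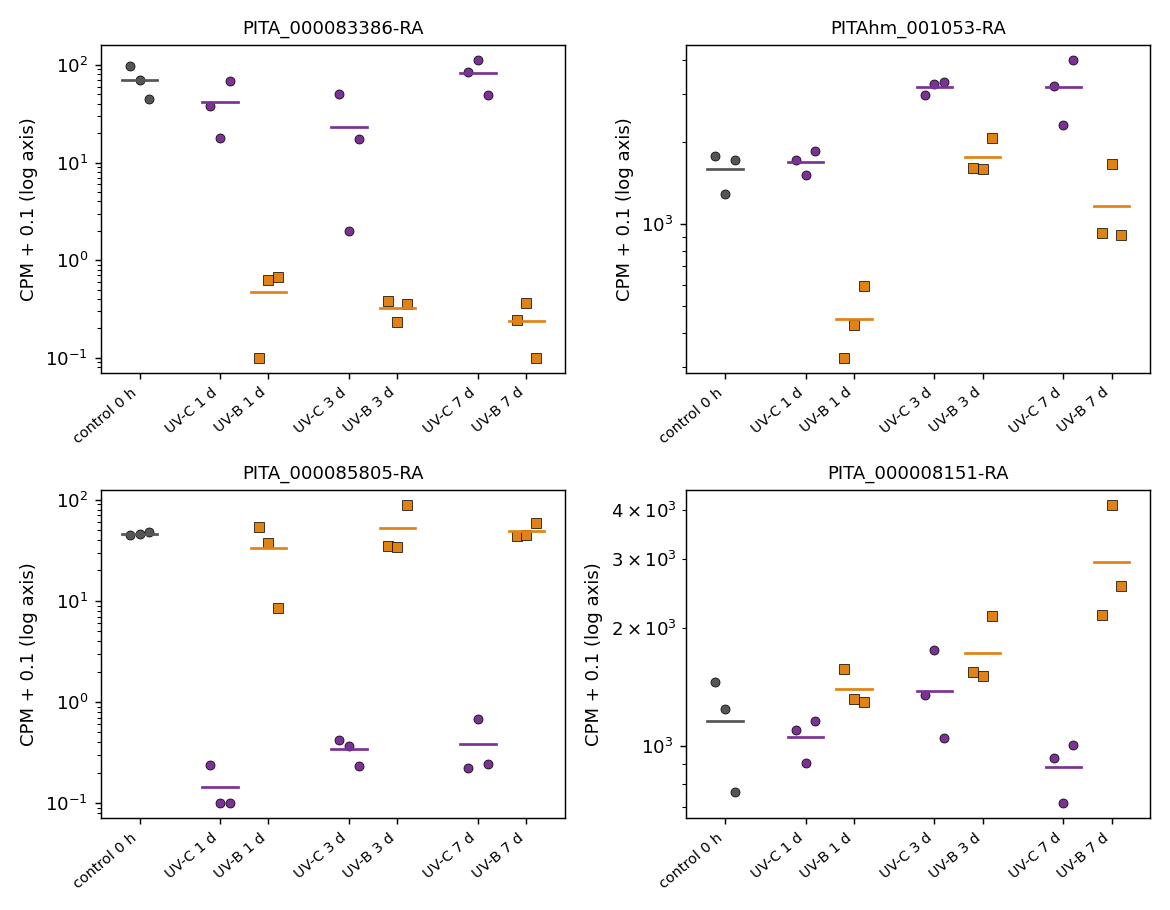
CPM of the 4 followed genes in all 21 libraries, with 0.1 added and on a log axis (points, libraries; bars, group means; grey, control; purple circles, UV-C; orange squares, UV-B). PITA_000083386-RA lies near the bottom in every UV-B group and PITA_000085805-RA in every UV-C group, while PITA_000008151-RA separates the bands clearly at 7 d.

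A small set of genes was nearly absent under one band at 7 d, and the set was defined after seeing the data. It holds the called genes with 10 counts or fewer over the 3 libraries of one band and a mean of at least 4 CPM under the other: 8 with few counts under UV-B and 4 with few under UV-C, with PITA_000083386-RA and PITA_000085805-RA among them. Of all tested genes, 12 and 14 met the same limits on counts, called or not. The 8 genes had group means between 5.37 and 82.1 CPM under UV-C at 7 d and at most 0.406 CPM under UV-B. Of these, 3 had 10 counts or fewer under UV-B at 1 d and 5 at 3 d, and 0 had so few under UV-C at either duration. The 4 genes had between 5.68 and 49.1 CPM under UV-B at 7 d and at most 0.279 CPM under UV-C, and 4 of 4 had 10 counts or fewer under UV-C at 1 d and at 3 d as well. For one of the 4 the UV-B libraries disagreed, with 22.4, 0.267 and 32.6 CPM. Among the 8, the UV-C libraries of 7 d spread most, relative to their mean, at 2.99, 11.8 and 35.1 CPM for a gene and at 2.15, 5.47 and 19.7 CPM for another. In the control, 4 of the 8 and 2 of the 4 had at least 4 CPM.

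The called genes were also set beside the 0 h control. It was labelled 0 h, so a difference from it spans 7 d of elapsed time as well as the ultraviolet light, and the parts cannot be told apart. Calls against the control share the 7 d libraries with the comparison of the bands, so the following classes describe and are no second test. In neither band were 302 of the 1111 called against it. Of the 595 genes higher under UV-C, 309 (51.9%) were below the control under UV-B and not called under UV-C. Relative to the control, their median log2 fold change was 0.00 under UV-C and -0.94 under UV-B. A further 101 (17%) were above the control under UV-C and not called under UV-B, with medians of 0.63 under UV-C, against -0.04 under UV-B. In both bands, 158 (26.6%) were not called against the control. Of the others, 16 were below it under both bands and further under UV-B, 10 were above it under UV-C and below it under UV-B, and 1 was above it under both. Over all tested genes, UV-C at 7 d was called above the control for 6.36% and below it for 6.14%, and UV-B for 10% and 8.38%.

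The 516 genes lower under UV-C divided in a similar way. UV-B was above the control and UV-C not called for 227 (44%), with medians against the control of 0.01 under UV-C and 1.35 under UV-B. UV-C was below the control and UV-B not called for 99 (19.2%), with medians of -0.85 under UV-C and 0.02 under UV-B. For 144 (27.9%) neither band was called, and 4 genes were below the control under both bands. A group of 36 genes was above the control under both bands and further under UV-B, with a median log2 fold change of 2.28 under UV-C and 4.16 under UV-B. Those 36 genes took 0.108% ± 0.011 of counts under UV-C and 0.288% ± 0.051 under UV-B (SD, n = 3 each), against 0.0461% ± 0.0019 in the control.

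Among the called genes, 10 were above the control under UV-C and below it under UV-B, and 6 the other way round. The share of all tested genes with such opposite calls was not counted. The fold change against the control was smaller in size under UV-C than under UV-B for 401 of the 595 higher genes (67.4%) and 329 of the 516 lower genes (63.8%), against 54.4% of all tested genes.

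**Figure D3:**
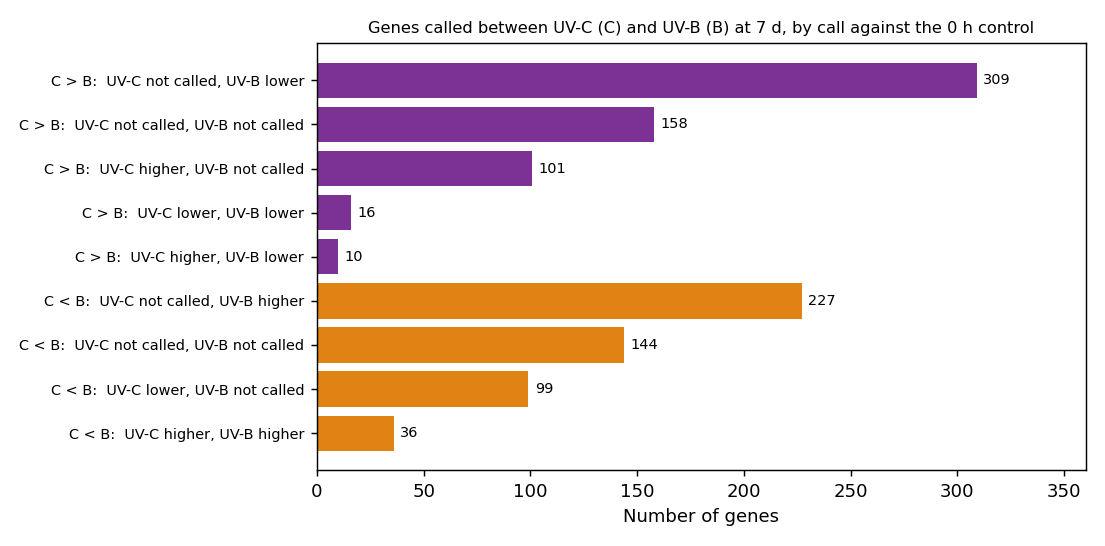
Number of genes called between UV-C (C) and UV-B (B) at 7 d, by their calls against the 0 h control, for classes of at least 10 genes. In the largest classes UV-C was not called against the control and UV-B was lower (309 genes) or higher (227 genes).

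Libraries of 1 and 3 d share none with those of 7 d, but the calls of all durations came from the same fit with a shared dispersion per gene. A gene with many counts or a low dispersion is called more readily at every duration. The shares over all tested genes given beside the repeats are not matched for either. Of the 595 genes higher under UV-C at 7 d, 289 repeated the call at 1 d (48.6%, where 10.3% of all tested genes were called higher) and 232 at 3 d (39%, where 4.54% were). Of the 516 lower genes, 250 repeated it at 1 d (48.4%, where 11.1% were called lower) and 215 at 3 d (41.7%, where 4.05% were). As shares of the longer lists, the common genes were 15.4% of the higher and 12.3% of the lower genes of 1 d, and 28% and 29.1% of those of 3 d. The sign of the difference, called or not, was the same at 3 d for 560 of the 595 higher genes (94.1%, against 51.2% of all tested genes) and 483 of the 516 lower genes (93.6%, against 48.8%). At 1 d it was the same for 489 (82.2%, against 48.7%) and 452 (87.6%, against 51.2%).

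The differences were smaller at the earlier durations in genes chosen at 7 d, which the choice favours. Across 1, 3 and 7 d the higher genes had median log2 fold changes of 0.51, 0.49 and 0.76, and the lower genes of -0.69, -0.71 and -1.13. The number called the same way at 1 d, 539, was 319, 272 and 284 without UV-C 7 d replicate 1, 2 or 3, while leaving out UV-B 7 d replicate 1, 2 or 3 gave 408, 292 and 256. The number at 3 d, 447, was 282, 247 and 258, and 337, 292 and 249 without these libraries, 390 without UV-C 3 d replicate 3 (omitted after seeing the data, with a mean correlation of 0.902 with its mates, against 0.96 between replicates 1 and 2), and 21 in fits of the compared groups alone.

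Summed over genes, the sets kept the bands apart in every library. The 595 higher genes took 8.79%, 9.02% and 8.81% of all counts in the UV-C libraries of 7 d, against 5.63%, 5.46% and 5.48% in the UV-B libraries, which were used to choose them. In libraries outside that contrast, which bear on the choice only through filtering, scaling and dispersion, they took 7.98% ± 0.26 under UV-C, against 5.83% ± 0.41 under UV-B at 1 d, and at 3 d 8.1% ± 0.53 under UV-C and 5.95% ± 0.087 under UV-B (SD, n = 3 each). The control, with 7.95% ± 0.12, lay with the UV-C groups. The 516 lower genes took 1.65%, 1.5% and 1.52% under UV-C at 7 d, against 2.85%, 3.38% and 3.44% under UV-B. They took 1.99% ± 0.033 under UV-C, against 3.61% ± 0.079 under UV-B at 1 d, and at 3 d 2.05% ± 0.13 under UV-C, against 3.41% ± 0.23 under UV-B. The control took 1.82% ± 0.052, again nearer to UV-C.

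**Figure D4:**
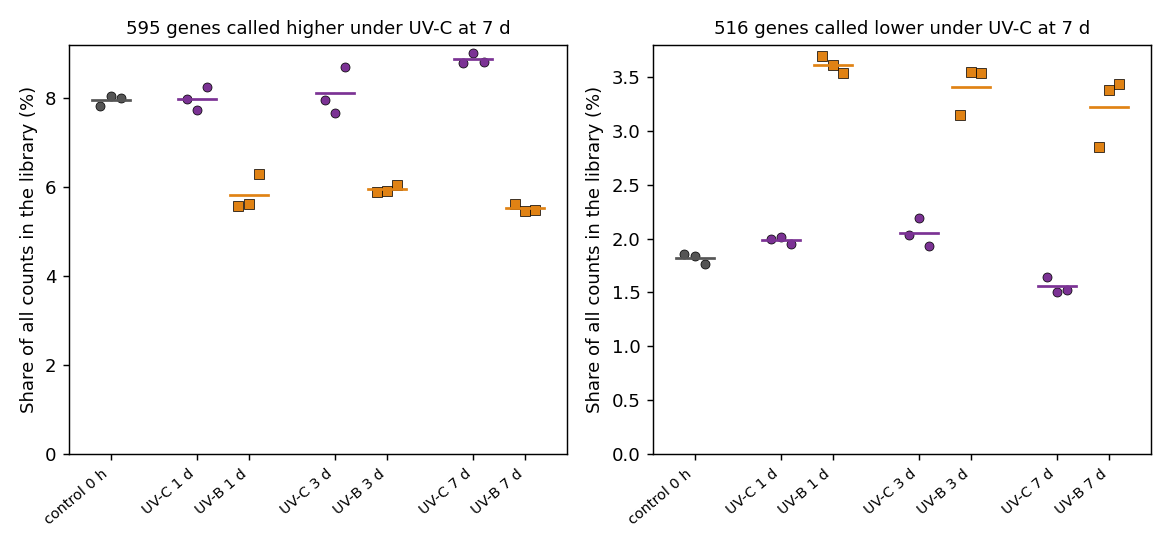
Share of all counts in each of the 21 libraries taken by the 595 genes higher (left) and the 516 genes lower (right) under UV-C than UV-B at 7 d (points, libraries; bars, group means). UV-C (purple circles) lies near the control (grey) and apart from UV-B (orange squares) at 1, 3 and 7 d, and the 7 d libraries were used to choose the genes.

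In the fit of all libraries, 305 genes were called in the same direction at all 3 durations, 154 higher and 151 lower under UV-C. Their number was 18 in fits of the compared groups alone and 480 with DESeq2. It was 202, 179 and 185 without UV-C 7 d replicate 1, 2 or 3, and leaving out UV-B 7 d replicate 1, 2 or 3 gave 237, 204 and 184. Across 1, 3 and 7 d the 154 genes had median log2 fold changes of 0.96, 0.91 and 0.92, and the 151 genes of -1.34, -1.37 and -1.33. The 154 genes took 2.51% ± 0.062 of counts under UV-C at 7 d and 1.38% ± 0.039 under UV-B (SD, n = 3 each), against 2.34% ± 0.033 in the control. The 151 genes took 0.609% ± 0.026 under UV-C at 7 d and 1.34% ± 0.14 under UV-B, against 0.67% ± 0.0082 in the control. These genes were chosen on all these durations.

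At 7 d but at neither earlier duration, 215 higher and 192 lower genes were called. A call at one duration and none at another is not a difference between them, so the change of the band difference was tested. The edgeR interaction test, run over all tested genes, called a change between 1 and 7 d for 35 of these 407 genes. Of all tested genes it called 395 (2.16%). Between 3 and 7 d it called 0 of the 407, against 6 of all tested genes (0.0328%), so the 0 says little about the 407. The 407 genes were chosen for a call at 7 d and none earlier, which favours such a change. The sign was the same at 1 d, 3 d and 7 d for 130 of the 215 (60.5%, against 32.4% of all tested genes positive at both 1 and 3 d) and 139 of the 192 (72.4%, against 32.4% negative at both). Across 1, 3 and 7 d the 215 genes had median log2 fold changes of 0.13, 0.31 and 0.69, and the 192 genes of -0.24, -0.39 and -1.03, an order of sizes that the choice builds in.

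The band difference at 7 d differed from that at 1 d for 395 genes, 2.16% of those tested, by the edgeR interaction test. In 301 of the 395 the difference was smaller in size at 7 d, and in 94 larger. The share of all tested genes with a smaller difference at 7 d was not counted. At 1 d only, 290 of the 395 were called between the bands, at 7 d only 59, at both in the same direction 8, at both in opposite directions 25, and at neither 13. The list of 1 d was the longer one. Over all tested genes, 10.3% were called higher and 11.1% lower at 1 d, against 3.26% and 2.83% at 7 d. Against 1 d, 206 genes (1.13%) had moved in favour of UV-C, with a median band difference of 0.31 at 7 d and -0.57 at 1 d, and 189 (1.03%) in favour of UV-B, with medians of -0.20 at 7 d and 0.80 at 1 d. The count was 87, 121 and 236 without UV-C 7 d replicate 1, 2 or 3, while leaving out UV-B 7 d replicate 1, 2 or 3 gave 383, 132 and 51. It was 39 in a fit of these 4 groups alone, 215 with no filter on low counts, and 1075 with DESeq2.

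The 25 genes called in opposite directions at 1 and 7 d had moderate differences. UV-C was higher at 7 d and lower at 1 d for 16 of them, with median log2 fold changes of 0.51 at 7 d, 0.12 at 3 d and -0.47 at 1 d. UV-C was lower at 7 d and higher at 1 d for 9, with medians of -0.61 at 7 d, 0.14 at 3 d and 0.67 at 1 d. The 16 genes took 0.226% ± 0.015 of counts under UV-C, against 0.166% ± 0.0028 under UV-B at 7 d, but 0.193% ± 0.01 under UV-C, against 0.25% ± 0.025 under UV-B at 1 d (SD, n = 3 each). In the control they took 0.172% ± 0.0043. Which band was higher at 7 d and at 1 d was fixed by the choice of these genes, so the shares only describe their size. The 25 genes were not recounted in the alternative fits, where the 395 they belong to became 39 in the groups compared alone.

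Between 3 and 7 d the band difference changed for 6 genes, 0.0328% of those tested, with 1791 at an unadjusted p under 0.05. DESeq2 called 129. The libraries of 3 d under UV-C spread more widely than those of 7 d, with a biological coefficient of variation of 41.1% against 19.9% for UV-C at 7 d, and its part in the count was not tested. The count was 2, 1 and 7 without UV-C 7 d replicate 1, 2 or 3. Leaving out UV-B 7 d replicate 1, 2 or 3 gave 18, 4 and 2, and leaving out UV-C 3 d replicate 3 gave 3.

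**Figure D5:**
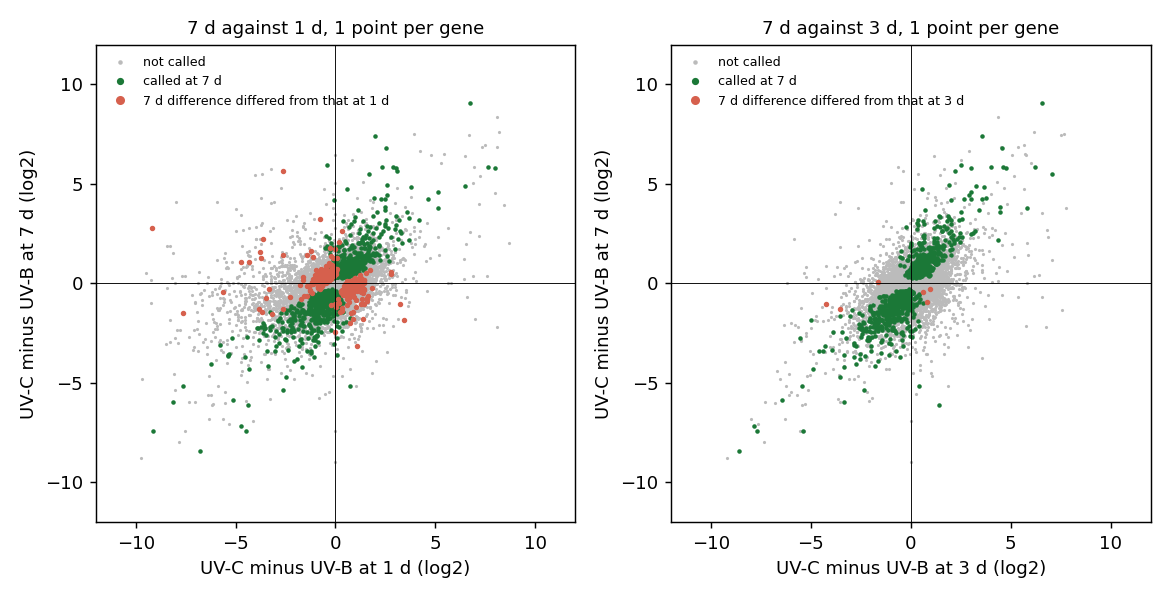
Log2 difference UV-C minus UV-B at 7 d (vertical) against that at 1 d (left, horizontal) and 3 d (right, horizontal), 1 point per tested gene (grey, not called; green, called at 7 d; red, band difference at 7 d differing from that at the earlier duration). Red points number 395 on the left and 6 on the right. Of the 395, 314 lie in the quadrants of opposite sign, which a choice by a changed difference favours.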

How the data were processed

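Per the labels' protocols, poly(A) RNA was sequenced from both ends with 150 bp reads, which were trimmed with Trimmomatic 0.36; per the submitters' processing notes, reads were counted with featureCounts 1.5.3. The authors deposited raw counts for 84525 gene models in 21 libraries; aligner, reference and strand setting: not given in the sources used here. Near-identical conifer gene copies may divide or lose reads, so single gene models are uncertain. Groups came from sample titles.

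Counts were fitted with edgeR 4.0.16 under R 4.3.3 (quasi-likelihood, two-sided) in all 21 libraries, with 1 mean per group, TMM scaling and the filterByExpr filter. A gene was called where its adjusted p (Benjamini-Hochberg) was under 0.05. SE is the log2 fold change over the square root of F. Alternatives used DESeq2 1.42.0 and limma 3.58.1, other filters and scalings, and left-out libraries. All pairs of 7 d replicates differed by more than sampling noise (chi-square of at least 7.44 per degree of freedom).

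Followed genes were called, averaged at least 2 log2-CPM (prior count 2) without overlap, and had the largest fold change or CPM difference in each direction. The comparison and rules were chosen with earlier results of these data known. Gene lists could not be matched to identifiers, so none was tested.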

Additional observations from a re-analysis of the deposited data

Results flagged for a closer look

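The difference between UV-C and UV-B was not the same at 7 d and 1 d for 395 genes, and not the same at 7 d and 3 d for 6 genes, in the edgeR interaction test. Among the 395, 25 were called in opposite directions at the 2 durations, and 301 had the smaller difference at 7 d. The share of all tested genes with the smaller difference at 7 d was not counted. For the 4 followed genes, the interaction test passed the threshold at neither earlier duration.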

How the results depend on the processing

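The 1111 called genes became 1717 with DESeq2, 1911 with limma voom and group weights and 513 where a log2 fold change of 1 was required. Higher and lower genes, 595 and 516, became 905 and 812, 983 and 928, and 223 and 290. Without 1 library of 7 d, the total ran between 433 and 825, the higher genes between 235 and 439, and the lower genes between 195 and 386. Without UV-C 3 d replicate 3, omitted after seeing the data, they were 1342, 728 and 614. A fit of the groups compared alone gave 1356, and no filter on low counts 912. Of the 1111, 1106 were called in the same direction with DESeq2, 1075 with group weights, 850 in the groups compared alone, 726 with no filter, and between 420 and 719 without 1 library of 7 d.

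The 395 genes of the interaction with 1 d became 215 with no filter on low counts, 1075 with DESeq2, 39 in the groups compared alone and 166 with the minimum fold change, and between 51 and 383 without 1 library of 7 d, and 572 without UV-C 3 d replicate 3. The 6 genes of that with 3 d became 129 with DESeq2, 3 in the groups compared alone and 3 without UV-C 3 d replicate 3, and between 1 and 18 without 1 library of 7 d. Genes called alike at 1 d, 539, became 813 with DESeq2 and 247 with the minimum fold change, between 256 and 408 without 1 library of 7 d, and 684 without UV-C 3 d replicate 3. Those alike at 3 d, 447, became 725 with DESeq2, 21 in the groups compared alone and 204 with the minimum fold change, between 247 and 337 without 1 library of 7 d, and 390 without UV-C 3 d replicate 3.

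The 305 genes called alike at 1, 3 and 7 d, a result added after seeing the data, became 480 with DESeq2, 18 in the groups compared alone and 139 with the minimum fold change, between 179 and 237 without 1 library of 7 d, and 267 without UV-C 3 d replicate 3.

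DESeq2 size factors gave 1134 genes at 7 d and upper quartile scaling 1061, and scaling moved the median of all genes by at most 0.003 on the log2 scale. The directions of the 4 followed genes held in the 16 alternatives. No pairing of the libraries by replicate number was seen, though 3 libraries a group cannot exclude it. Deviations of UV-C and UV-B libraries of equal number correlated at -0.11, -0.15 and 0.03, and those of unequal number between -0.11 and 0.18. With the replicate block, 1017 genes were called at 7 d. A fit without 1 library rests on 2 in that group. Depth leaves genes under 1 CPM with intervals too wide for all but large differences.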
